A study of Mus musculus with 24 samples.

Results

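The comparison is between clone 12 of the recombination d3 and the parental line of d3 in mouse embryonic stem cells. Its members are 4 of the 24 libraries of the series, 2 of clone 12 and 2 of the parental line, chosen by the d3, clone 12 and parental labels. The cells are F121/9, a female F1 hybrid line with 1 genome from 129/Sv and 1 from CAST/EiJ, grown in serum-free medium with LIF and inhibitors of MEK and GSK-3β (2i). The labels give the genotype of the parental line as control and that of clone 12 as recombined. They do not give the position or the extent of the recombination. Clone 12 is 1 clone, so that what is particular to the recombination and what is particular to this clone cannot be told apart from these 4 libraries. A second d3 clone, clone 21, and a clone of the recombination d6, clone 16, with its own parental line, are given beside it where they bear on its values. The replicates are biological duplicates per the series' design text.

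Poly(A) RNA was read as single-end reads of 75 bases, and the deposited counts assign reads of each gene to the 129S1 or the CAST genome. A gene that differs between the genomes at enough positions can thus be followed separately on each chromosome copy, and a change on 1 copy can be read against the other copy in the same cells. The title of the series concerns contacts between the genome and the nuclear lamina. The lamina is a protein meshwork under the inner nuclear membrane, and the stretches of chromosome that touch it usually hold genes of low expression. The genes described most closely here lie around Tdgf1 on chromosome 9. Tdgf1, also called Cripto, encodes a cell surface protein that serves as a coreceptor for Nodal, a signal of the TGF-β family that acts in embryonic stem cells and in the early embryo.

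Before the values, the start sites of 3 genes of that stretch are shown. Each of them was called lower on the CAST copy of clone 12, as were other genes whose start sites are not shown. The sequences are reference promoters from RefSeq on GRCm38.p6, not sequence of these cells, and each runs from 250 bases before to 50 bases after the annotated start, read 5′ to 3′ on the gene's strand. Capitals mark the CG dinucleotides.

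Tdgf1 promoter (chr9:110946109-110946408, minus strand): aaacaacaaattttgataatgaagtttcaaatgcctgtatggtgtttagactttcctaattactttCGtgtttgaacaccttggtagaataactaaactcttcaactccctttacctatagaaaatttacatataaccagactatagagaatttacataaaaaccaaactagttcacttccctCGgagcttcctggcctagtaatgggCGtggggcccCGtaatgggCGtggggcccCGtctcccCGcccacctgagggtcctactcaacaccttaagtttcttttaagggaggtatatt

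Lrrc2 promoter (chr9:110951295-110951594, plus strand): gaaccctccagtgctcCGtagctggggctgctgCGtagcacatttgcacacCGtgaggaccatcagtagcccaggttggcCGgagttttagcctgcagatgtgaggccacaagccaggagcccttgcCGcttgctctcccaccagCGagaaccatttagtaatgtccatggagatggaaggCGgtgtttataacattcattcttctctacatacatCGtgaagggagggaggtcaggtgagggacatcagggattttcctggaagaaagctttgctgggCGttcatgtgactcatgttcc

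Rtp3 promoter (chr9:110989664-110989963, minus strand): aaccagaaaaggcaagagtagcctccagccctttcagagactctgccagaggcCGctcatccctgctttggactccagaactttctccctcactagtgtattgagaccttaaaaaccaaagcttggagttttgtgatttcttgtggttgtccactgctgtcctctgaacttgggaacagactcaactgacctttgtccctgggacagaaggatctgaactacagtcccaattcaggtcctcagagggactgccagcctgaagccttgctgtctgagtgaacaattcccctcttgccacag

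The Tdgf1 window holds 7 CG dinucleotides, the Lrrc2 window 9 and the Rtp3 window 1. Windows of Als2cl, a gene of the same stretch, are not printed here and hold 33 and 38. The median over 32817 promoter windows of this length was 7, and 94.6% of them held at least as many as Rtp3. The letters TATAAA, searched on both strands, are in the Lrrc2 window and in none of the others named here, and 13.6% of all windows hold them. These are descriptions of the reference sequence only.

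Total counts were 12263924 and 10383315 in the parental libraries and 15581094 and 11587552 in the clone's. Without mitochondrial genes, 48.7% to 49.1% of counts were assigned to 129S1. Parental replicate 2 stood apart from the other 3 libraries. Its chi-square per degree of freedom against each of them was 60.7 to 72.3, while parental replicate 1 and clone replicate 1 differed by 5.79 and both differed from clone replicate 2 by 32.0 to 33.9. Parental replicate 2 also had the lowest mitochondrial share, 3.16%, against 6.11% in parental replicate 1 and 8.07% and 7.79% in the clone. Replicates with the same number deviated together, with a correlation of 0.45 across 16253 genes, which are not independent replicates. The clone was therefore set against the parental line both without and with a term for the replicate number, called the replicate block. With 2 libraries against 2, an exact permutation test of a single value cannot go below a two-sided p of 0.333. The p-values below come from edgeR's quasi-likelihood test, which borrows its spread from all 24 libraries, with Benjamini-Hochberg adjustment over all genes tested. A gene was called at an adjusted p under 0.05.

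In the counts of both copies added together, 2 of 16253 genes were called, both lower in clone 12 and both on chromosome 9 (0.0123% of the genes tested). With the replicate block 2 genes were called as well (0.0123%). An unadjusted p under 0.05 was found in 713 genes without the block and in 2618 with it. The called gene described here is Rtp3, a member of a family of proteins that help receptors to reach the cell surface. On the CAST copy alone, 6 of 13951 genes were called (0.043%), and with the block 7 (0.0502%). All of these were lower in clone 12 and lay on chromosome 9. On this copy 651 genes had an unadjusted p under 0.05 without the block and 2070 with it. On the 129S1 copy no gene of 13919 was called (0%), and DESeq2 called 0. An unadjusted p under 0.05 was found there in 589 genes without the block and in 2082 with it. With the block 1 gene was called there (0.00718%), the pseudogene Tdgf1-ps1, which lies on chromosome 16. In the ratio between the copies, 5 of 10795 genes were called (0.0463%), all on chromosome 9 and all with a larger 129S1 share in clone 12. With the block 6 were called (0.0556%), the additional gene being Tdgf1-ps1. Without parental replicate 1, which leaves parental replicate 2 as the only parental library, these counts rose to 822 in the total, 563 on 129S1, 535 on CAST and 155 in the ratio. These calls lay mainly elsewhere and ran in both directions: of the 822, 43 were on chromosome 9 and 511 were higher, and of the 535, 36 and 308. Without clone replicate 1 the ratio was called in 70 genes, 7 of them on chromosome 9, the 129S1 counts in 6 and the CAST counts in 8, 6 of them on chromosome 9. The single gene called in the total was then not on chromosome 9. Without the filter on low counts, 25 genes were called in the total (3 on chromosome 9, 11 higher), 17 on 129S1 (none on chromosome 9) and 26 on CAST (10 on chromosome 9, 7 higher).

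The genes within 1 Mb of Tdgf1 on either side were examined together. GENCODE M21 lists 65 there, of which 28 averaged 10 counts or more over the 4 libraries. In 15 of these 28, both clone libraries lay below both parental libraries on the CAST copy, where 11.7% of all tested genes did so. Outside the stretch described next, these were Gm4734 (CAST log2 change -0.66), Nradd (-0.21), Ccdc12 (-0.74) and Prss50 (-2.12), and none of these 4 was called. On the 129S1 copy 1 of the 28 did (11.4% of all tested genes), and in the total 11 did (11.3%). Of the 28 genes, 25 were tested on the CAST copy, and these included all 6 called genes. None of the 26 tested on the 129S1 copy was called, and none had an unadjusted p under 0.05. The plot of log2 changes by position shows the lowest CAST values next to Tdgf1. Other genes scattered above and below 0. On 1 side, Ccdc12, the nearest plotted gene outside the stretch, was at -0.54 and -0.89, and 5830462I19Rik at 1.30 and 1.11. On the other side no gene is plotted between Epm2aip1, at 0.33 Mb, and Pdcd6ip, at 2.74 Mb.

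**Figure D1:**
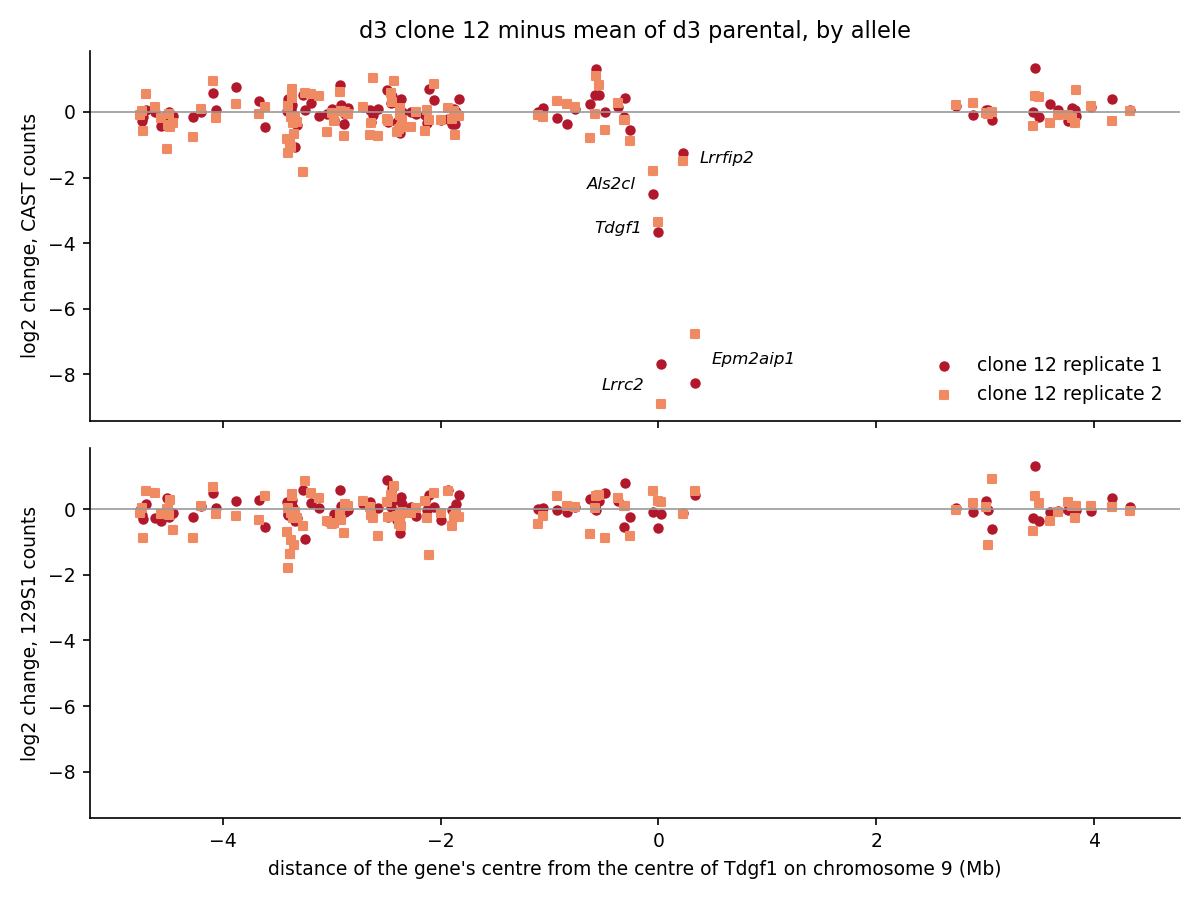
Log2 change of clone 12 replicates 1 and 2 (circles and squares) from the parental mean, on the log2 scale of CPM plus 0.05, against the distance of each gene's centre from that of Tdgf1 in Mb, for the CAST copy (top) and the 129S1 copy (bottom). Genes that average 10 counts or more on each copy are shown, and the lowest CAST points belong to Lrrc2, Epm2aip1 and Tdgf1.

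The order of the affected genes along chromosome 9 (GRCm38) begins with Als2cl and ends with Dclk3. This stretch, whose ends were chosen after the values were seen, spans 609 kb and holds 21 annotated genes, 12 of them protein coding. The medians below describe it and test nothing, since its ends rest on the same values. Over the 6 genes of the stretch with a mean of 10 counts on each copy, the median log2 change on the CAST copy (CPM plus 0.5) was -4.30 in clone replicate 1 and -4.05 in clone replicate 2. On the 129S1 copy of the same genes it was -0.09 and 0.24. The 107 such genes on the Ccdc12 side, within 10 Mb of Tdgf1, had CAST medians of 0.04 and -0.08. The 37 on the Pdcd6ip side had 0.05 and -0.02. Whether the CAST DNA of this stretch is present in clone 12 cannot be told apart from a loss of its transcription in RNA counts.

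Tdgf1 (ENSMUSG00000032494.12, chromosome 9, 110939603 to 110946158, minus strand) had 5449 and 4524 CAST counts in parental replicates 1 and 2, and 551 and 493 in clone replicates 1 and 2. Its 129S1 counts were 8459 and 11848 in the parental line and 9410 and 12209 in the clone. The CAST counts of the clone thus lie far below both parental libraries, while the 129S1 counts overlap between the groups. Scaled to library size, the CAST level went from 458.1 ± 10.6 to 40.4 ± 5.53 CPM (counts scaled by library size; mean ± SD, n = 2). Within replicate 1 the clone had 8.09% of the parental CAST level, and within replicate 2 it had 9.51%. The log2 change was -3.51 (SE 0.429, adjusted p 5.70e-04, edgeR), and it was called under each of 11 alternative settings. On the 129S1 copy it was -0.15 (SE 0.421, adjusted p 1.00), with a 95% interval of -1.04 to 0.73. CAST contributed 39.2% and 27.6% of the Tdgf1 counts in the parental line, and 5.53% (95% Wilson interval 5.1% to 6.0%) and 3.88% (3.56% to 4.23%) in the clone. The ratio of 129S1 to CAST changed by 3.35 on the log2 scale (SE 0.225, adjusted p 1.22e-08).

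Lrrc2 (chromosome 9, 110951545 to 110984066), the neighbour of Tdgf1 on the other strand, encodes a leucine-rich repeat protein known from heart and skeletal muscle. Its CAST counts were 311 and 213 in the parental libraries and 1 and 0 in the clone's. From the summed counts and library sizes, the CAST level was 631-fold higher in the parental line, with an exact binomial interval of 113 to 24956 that covers counting error only. The CAST test gave an adjusted p of 2.31e-07 (edgeR), below 0.05 under each of 11 alternative settings. The 129S1 counts of Lrrc2 were 343 and 335 against 430 and 410, which gave 0.06 on the log2 scale (SE 0.232, adjusted p 1.00). Scaled, these were 31.4 ± 4.32 and 32.6 ± 5.92 CPM (SD, n = 2), so the 129S1 copy did not differ beyond the spread between replicates. The CAST share of Lrrc2 was 47.6% and 38.9% in the parental line, and in clone replicate 2 none of 410 counts was CAST, with a Wilson upper bound of 0.928%.

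Rtp3 (ENSMUSG00000066319.6) follows Lrrc2 and was read mainly from the CAST copy in the parental line. It had 45 and 83 CAST counts there and 0 and 0 in clone 12. Against a floor of 3 counts per library the CAST level was at least 26.2-fold lower in the clone (adjusted p 2.07e-04, edgeR). The 129S1 counts were low in all 4 libraries, 5 and 7 in the parental line and 8 and 8 in the clone. CAST gave 90.0% and 92.2% of the parental counts, and the total of Rtp3 fell from 50 and 90 to 8 and 8. The total changed by -3.41 on the log2 scale (SE 0.477, adjusted p 0.0129), and by -3.33 under the block (adjusted p 1.16e-04). The call of the total was lost in a fit of only the 4 libraries (adjusted p 1.00) and without parental replicate 2 (0.280), clone replicate 1 (0.198) or clone replicate 2 (0.315). The CAST call was lost in a fit of only the 4 libraries (adjusted p 0.0595). Rtp4, the other family member that was tested, had 1.74 and 0.412 CPM in the parental line and 1.79 and 0.0898 in the clone.

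Gm10030, a noncoding transcript on the plus strand that overlaps the start of Rtp3 by 1085 bases, had 11 and 15 CAST counts in the parental line and 0 and 0 in the clone. Its CAST level was at least 5.24-fold lower (adjusted p 0.0301, edgeR). With the block the adjusted p was 0.0769, so the call was lost there, as it was under 5 other settings. Whether the counting used strand is not given in the sources used here, so that reads of Rtp3 and Gm10030 in their overlap may not be separated.

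Farther along, Epm2aip1 encodes a protein that binds laforin, a phosphatase of glycogen metabolism. Its CAST counts were 265 and 102 in the parental line and 0 and 1 in clone 12. The CAST level was 442-fold higher in the parental line, with a counting interval of 78.8 to 17493 (adjusted p 2.51e-06, edgeR). The 129S1 counts were 237 and 84 against 264 and 215, with parental replicate 2 the low one on both copies. The 129S1 log2 change was 0.38 (SE 0.274, adjusted p 1.00). Without parental replicate 1 it was 1.08 and was called (adjusted p 0.0271), so the value on this copy turns on that library. Dclk3, which encodes a kinase of the doublecortin-like family, had 15 and 19 CAST counts in the parental line and 0 and 0 in the clone, at least 6.83-fold lower. This was not called (adjusted p 0.485, and 0.101 with the block). The 129S1 counts of Dclk3 were 51 and 53 against 64 and 67. Trank1, between Epm2aip1 and Dclk3, had 3 and 3 CAST counts against 0 and 0, at the floor in both groups.

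The plot of counts per library shows the members side by side, with the CAST points of Lrrc2, Rtp3, Epm2aip1 and Dclk3 at or next to 0 in the clone and no such gap on the 129S1 copy.

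**Figure D2:**
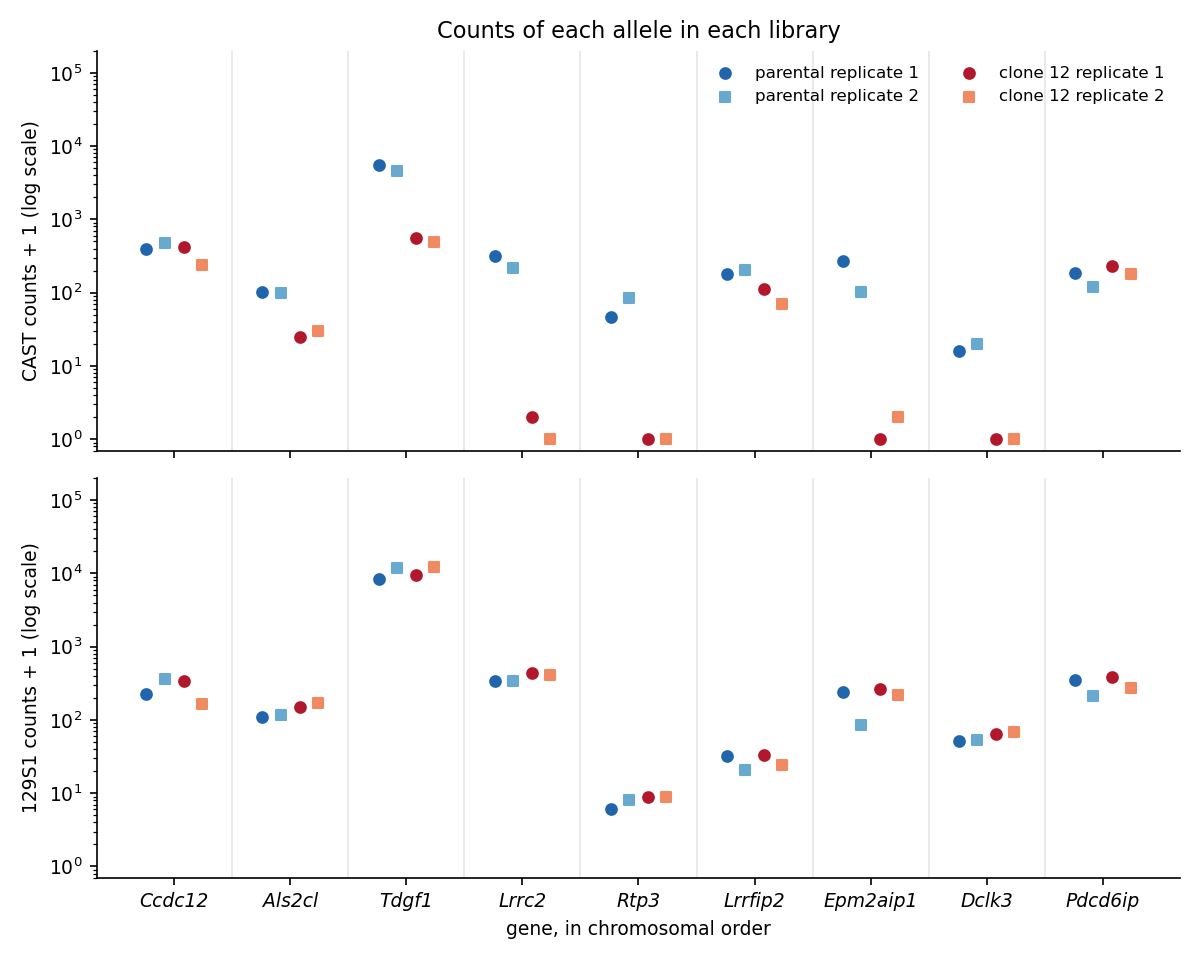
Counts plus 1 on a log scale for each of the 4 libraries, for the CAST copy (top) and the 129S1 copy (bottom) of 9 genes in chromosomal order. Tdgf1 keeps 551 and 493 CAST counts in the clone, Als2cl 24 and 29 and Lrrfip2 111 and 70, while Rtp3 and Dclk3 are at 0.

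The genes Als2cl, Tdgf1 and Lrrfip2 kept part of their CAST counts. Als2cl encodes a protein related to alsin, an activator of the small GTPase Rab5. It had 102 and 99 CAST counts in the parental line and 24 and 29 in the clone, and within pairs the clone had 18.8% and 25.6% of the parental CAST level. The CAST log2 change was -2.17 (SE 0.556, adjusted p 0.988), and it was called with the block (-2.18, adjusted p 6.15e-04). The allelic ratio of Als2cl was called without the block (2.41, SE 0.301, adjusted p 3.20e-04). The 129S1 counts of Als2cl were 108 and 117 against 147 and 169. Gm43127, a transcript model within Als2cl on the other strand, had 9 and 6 CAST counts against 1 and 1.

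Lrrfip2 encodes a protein that binds the actin regulator flightless-1. Its CAST counts were 180 and 203 in the parental line and 111 and 70 in the clone, which is 49.3% and 30.1% of the parental level within pairs. The CAST log2 change was -1.39 (SE 0.308, adjusted p 0.485), called with the block (adjusted p 0.00924). Its 129S1 counts, 31 and 20 against 32 and 23, overlapped. The ratio of Lrrfip2 changed by 1.19 (SE 0.402) and was not called (adjusted p 0.844, and 0.298 with the block).

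Outside the stretch, the nearest genes with a mean of 10 counts on each copy were Ccdc12 and Pdcd6ip. Both had counts from each genome in the clone. On the side of Als2cl, 168 kb separate it from Ccdc12, with 8 genes between, of which 1 had a mean of 10 counts. That gene is Prss50, a protease gene known from testis, with 6 and 19 CAST counts against 4 and 3. Its 129S1 counts were 13 and 8 against 18 and 9. Ccdc12, a gene for a component of the spliceosome, had 396 and 478 CAST counts against 418 and 241, and 228 and 359 on 129S1 against 341 and 166. Its ratio changed by 0.19 (SE 0.152, adjusted p 1.00). On the side of Dclk3, 2163 kb with 22 annotated genes and none with a mean of 10 counts lie before Pdcd6ip, which encodes the ESCRT-associated protein ALIX. Pdcd6ip had 184 and 119 CAST counts against 233 and 177, and its CAST log2 change was 0.18 (SE 0.322, adjusted p 0.999). The end of the affected stretch on that side was therefore not resolved by these counts. Nor was its other end, between Als2cl and Ccdc12, where only the low counts of Prss50 could be followed.

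**Figure D3:**
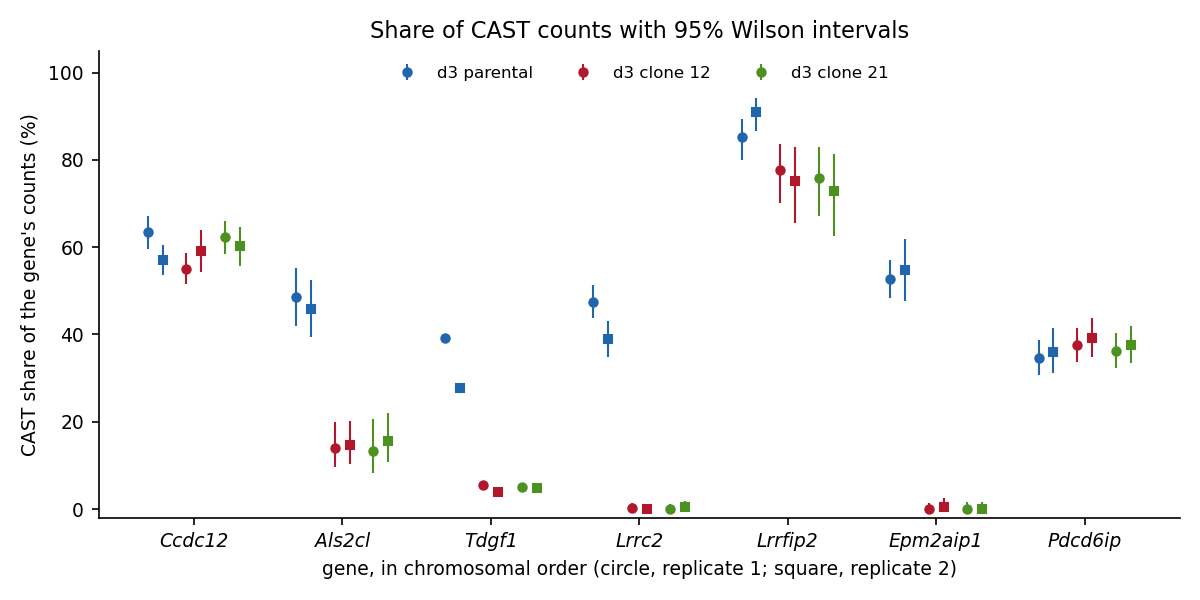
CAST share of each gene's counts in percent, for replicate 1 (circles) and replicate 2 (squares) of the d3 parental line, clone 12 and clone 21, with 95% Wilson intervals. Ccdc12 and Pdcd6ip lie far from 0 in every library, Lrrc2 and Epm2aip1 are near 0 in both clones, and Tdgf1 is at 5.53% and 3.88% in clone 12.

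The loss of CAST counts was next set against the total of each gene. Where the 129S1 counts of a gene keep their level and the CAST counts go to 0, the clone's total equals the 129S1 share of the parental total. For Lrrc2 the clone's total was 59.1% of the parental total and the parental 129S1 share was 56.9%. For Tdgf1 these values were 63.5% and 67.7%, for Rtp3 9.31% and 8.46%, and for Dclk3 79.7% and 75.2%. For Epm2aip1 they were 60.8% and 46.6%, for Als2cl 73.5% and 53%, and for Lrrfip2 44.1% and 11.4%. In the total, Tdgf1 had a log2 change of -0.66 (SE 0.417; adjusted p 0.996 without and 0.0790 with the block) and Lrrc2 one of -0.76 (SE 0.229, adjusted p 0.996). Neither was called in the total, although both were called on the CAST copy. Rtp3, whose parental counts were mainly CAST, was called in both.

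A pseudogene on another chromosome was lower in clone 12 on the 129S1 copy, not on the CAST copy as the genes above were. Tdgf1-ps1 (chromosome 16, 3730510 to 3731022) is a processed copy of Tdgf1, an inserted copy of its spliced message. Its 129S1 counts were 87 and 40 in the parental line and 0 and 1 in clone 12, a parental level 153-fold higher with a counting interval of 26.9 to 6084. The test gave an adjusted p of 1.00 without the block and 7.82e-04 with it (edgeR). Its CAST counts, 855 and 668 against 851 and 908, overlapped. In the reference, the Tdgf1 coding sequence has 516 bases and the pseudogene 513, with 7 mismatches in the aligned part, an identity of 98.6%. Of the 442 windows of 75 bases in the Tdgf1 coding sequence, the length of 1 read, 161 (36.4%) are found without a mismatch in Tdgf1-ps1. At most 2 mismatches are found in 391 of the windows, and no window aligned without a gap has more than 3. The parts of the Tdgf1 message outside the coding sequence were not compared. The stretch below, bases 390 to 464 of the coding sequence, holds 3 of the mismatches, in capitals, within 1 read length. It is shown because no window aligned without a gap holds more, so other windows are as similar or more similar.

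Tdgf1: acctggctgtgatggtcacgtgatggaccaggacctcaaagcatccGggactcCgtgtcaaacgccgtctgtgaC

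Tdgf1-ps1: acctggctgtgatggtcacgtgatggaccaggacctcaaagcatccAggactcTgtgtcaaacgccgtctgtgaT

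Reads of Tdgf1 and Tdgf1-ps1 that fall in the identical windows cannot be separated by sequence in the reference. Both genes' values are uncertain to at least that extent, since the other windows differ at few bases. The part of this similarity in the 129S1 counts of Tdgf1-ps1 or in the CAST counts that Tdgf1 kept was not tested. Over both libraries of clone 12, of clone 21 and of clone 16 of d6, described below, Tdgf1-ps1 had 0 to 2 129S1 counts, and over the other 18 libraries of the series 4 to 186.

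The same genes were compared in d3 clone 21, a second clone set against the same 2 parental libraries as clone 12. Its CAST counts in replicates 1 and 2 were 360 and 552 for Tdgf1, 0 and 2 for Lrrc2, 0 and 0 for Rtp3 and 0 and 0 for Epm2aip1. For Als2cl they were 15 and 25, and for Lrrfip2 82 and 62. These values lie next to those of clone 12, gene by gene. When clone 21 was tested directly against clone 12, none of the genes within 1 Mb of Tdgf1 was called in the total (28 tested), on 129S1 (26), on CAST (25) or in the ratio (18), with or without the block. The lowest unadjusted p among these was 0.0279, for the ratio with the block. The CAST difference of Tdgf1, clone 21 minus clone 12, was -0.10 on the log2 scale (SE 0.396). The test does not show that the clones are alike, and over all genes without the block 8 were called between them in the total, 54 on CAST, 358 on 129S1 and 352 in the ratio.

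Clone 16 of d6 has its own parental libraries and thus shares none with clone 12. There Tdgf1 went from 3156 and 3185 CAST counts to 378 and 485, and Lrrc2 from 268 and 121 to 0 and 1. Rtp3 went from 41 and 36 to 0 and 0, and Epm2aip1 from 216 and 92 to 2 and 0. The CAST log2 change of Tdgf1 was -3.34 (SE 0.427, adjusted p 0.00107, edgeR), beside -3.51 in clone 12. Across the 18 libraries other than those of clones 12, 21 and 16, the CAST level of Tdgf1 was 328.4 to 900.6 CPM, against 28.0 to 54.3 in the 6 libraries of these clones. For Lrrc2 the ranges were 10.7 to 29.1 CPM and 0 to 0.170 CPM.

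The CAST counts of Als2cl were also lower than in the parental line in clones of the other recombinations. Its CAST level was 14.1 and 13.7 CPM in the i7 parental line, 0.711 and 1.33 in i7 clone 7 and 1.74 and 2.35 in i7 clone 12. It was 4.77 and 16.6 in the i10 parental line against 2.42 and 3.36 in i10 clone 18, and 6.43 and 15 in the i12 parental line against 1.60 and 5.42 in i12 clone 10. In d3 the parental line had 8.43 and 10.2 CPM and clone 12 had 1.59 and 2.60. In each of these recombinations both libraries of each clone lay below both libraries of the parental line on the CAST copy, and these other clones were not tested here. Of all genes tested on CAST, 11.7% did so in d3 clone 12. That share was not computed for the other recombinations.

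Beyond chromosome 9, genes of pathways near the functions of Tdgf1 and of stem cell identity were read from the totals. Of 162 symbols in 20 lists, 126 genes passed the filter on low counts and were tested, and Rtp3 was the only one called. An unadjusted p under 0.05 was found in 12 of the 126, 9 of them mitochondrially encoded, beside 713 of all 16253. The median log2 change of all genes tested was 0.01. Leaving out 1 library changed the sign of the median in 13 of the 20 lists, so the list medians below are given as values without a direction, and those that change sign are given with their range. The Nodal pathway has ligands that bind activin receptors together with Tdgf1, SMAD proteins that carry the signal to the nucleus, and inhibitors that are themselves targets. None of its members was called. The ligands and coreceptor, a list that includes Tdgf1, had a median of -0.36 (5 of 6 tested). Nodal itself had 62.3 and 44.3 CPM in the parental line and 63.1 and 28.6 in the clone. Gdf3, a related ligand, had 258.8 and 273.0 against 254.3 and 166.6. The receptors had a median of 0.21 (3 of 4 tested), the SMAD signal carriers 0.27 (3 of 4 tested, -0.02 to 0.38 with 1 library left out), and the targets and convertases 0.18 (3 of 3 tested, -0.13 to 0.78). Among inhibitors (median -0.20, 6 of 8 tested, -0.63 to 0.09), Skil, a SMAD corepressor, had 56.0 and 43.9 CPM against 58.5 and 88.8, a log2 value of 0.56 (SE 0.254, adjusted p 0.996). Lefty2, a direct target that blocks Nodal, had 122.9 and 61.4 CPM against 102.0 and 35.7. Its log2 value was -0.42 (SE 0.525, adjusted p 0.999), 0.17 without parental replicate 1 and 0.14 without clone replicate 2.

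**Figure D4:**
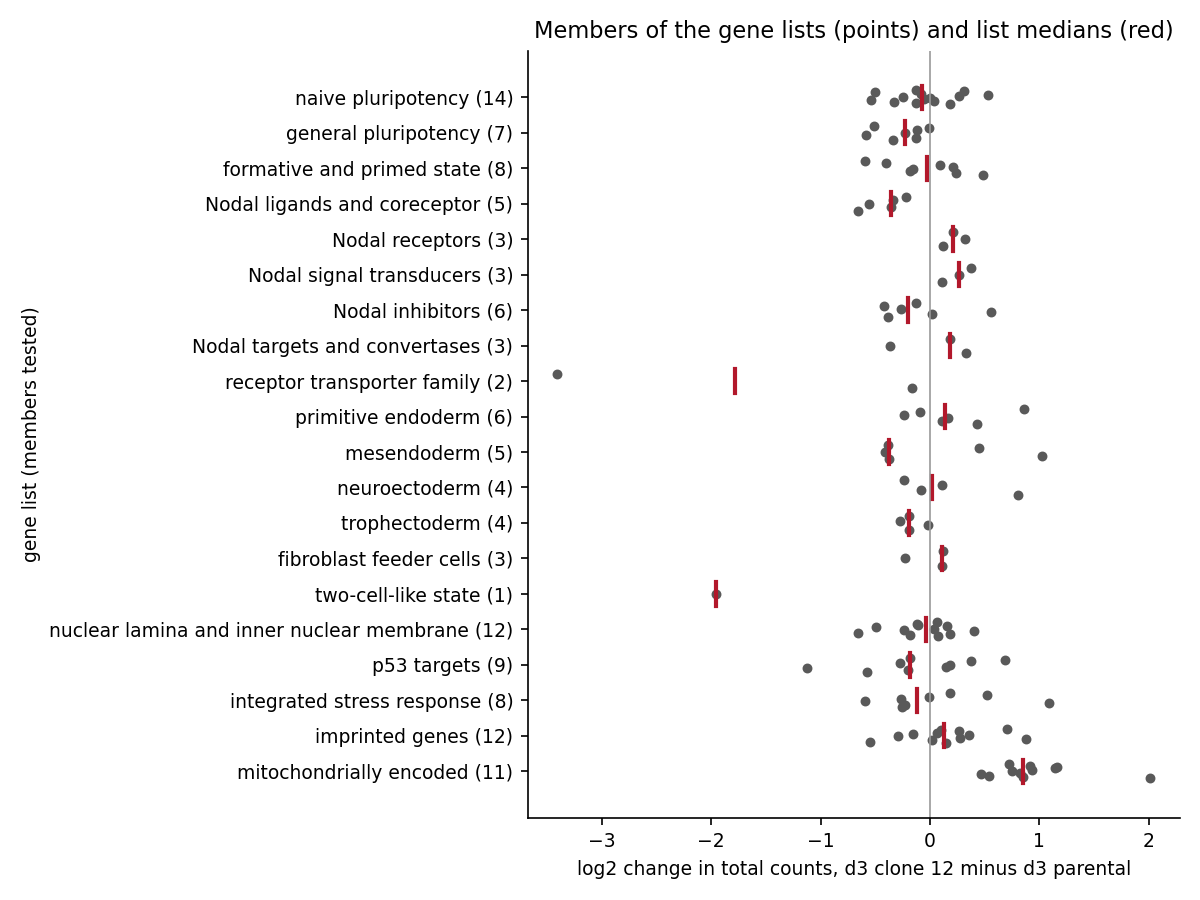
Log2 change in total counts, clone 12 minus parental, for the tested members of each gene list (points, number tested in brackets) with the list's median as a red line. Rtp3 lies at -3.41 in the receptor transporter family, and the mitochondrially encoded genes lie between 0.47 and 2.01.

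Markers of the naive stem cell state were present in all 4 libraries, which the labels call mESC. Nanog, a core pluripotency factor, had 1775 and 2217 CPM in the parental line and 1795 and 1867 in the clone, and Zfp42 (Rex1) 1618 and 1915 against 1641 and 1884. All 14 naive markers were tested and none was called (median -0.07, members from -0.54 to 0.53, median -0.12 to 0.03 with 1 library left out). None of the 7 general pluripotency genes was called either, with a median of -0.22. Pou5f1 (Oct4) had 759.4 and 1109 CPM against 799.4 and 510.7. The naive markers summed to 7622 and 7684 CPM in the parental line and 7500 and 8279 in the clone. The markers of the formative and primed state summed to 280.6 and 162.5 against 293.6 and 199.2, and those of primitive endoderm to 240.3 and 225.2 against 198.0 and 309.4. The mesendoderm markers summed to 67.5 and 40.8 against 56.9 and 34.7, most of it from T (Brachyury), with 47.8 and 37.0 against 36.7 and 28.1. Of the 5 tested, Gsc (1.03) and Eomes (0.45) had positive log2 values, and the median of -0.37 ran from -0.94 to 0.88 with 1 library left out. The 3 fibroblast markers tested, for feeder cells, summed to 19.8 and 24.7 against 17.9 and 23.7. None of the 8 markers of the formative and primed state that were tested was called (median -0.03, -0.17 to 0.29), nor any of 6 primitive endoderm, 4 trophectoderm and 4 neuroectoderm markers tested. Of the two-cell-like state, only Tcstv3 was tested, at 3.22 and 0.926 CPM against 0.992 and 0. In bulk RNA, fewer cells of a type and less RNA per cell cannot be told apart.

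Genes of the nuclear lamina and inner nuclear membrane were tested in full, 12 of 12, and none was called. Their median was -0.04 and their range -0.66 to 0.41. Lmnb1, which encodes lamin B1, had 611.7 and 591.4 CPM in the parental line and 540.1 and 715.0 in the clone. Lbr, the lamin B receptor, had 146.8 and 140.5 against 140.3 and 180.4. For both, the parental values lay between the clone's. The member with the lowest value, Banf1, which encodes a DNA-binding partner of LEM-domain proteins, had 48.6 and 77.8 CPM against 47.7 and 32.3 (adjusted p 0.996). The p53 targets (9 tested, median -0.18, -0.42 to 0.10 with 1 library left out), the integrated stress response genes (8 tested, -0.12, -0.77 to 1.06) and the imprinted genes (12 tested, 0.13, -0.16 to 0.44) had no called member.

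The mitochondrially encoded genes had the highest median of the lists, 0.85 (11 tested), and none was called, with 9 at an unadjusted p under 0.05. Their summed levels were 61542 and 33536 CPM in parental replicates 1 and 2, and 82599 and 80429 in the clone. All 11 lay higher in the clone's fit, and parental replicate 2, the library that stands apart, is the low one. Without it the median was 0.39, and without parental replicate 1 it was 1.55.

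The 9 genes described here, from those with the highest and lowest changes of the total under the following limits, were not called. Both clone libraries lay above both parental libraries in 11.1% of all tested genes, and below both in 11.3%. An average of 50 counts or more was reached by 11283 genes. Of these, 438 had no overlap between the groups and an unadjusted p under 0.05. In clone 12, 143 of the 438 were higher and 295 lower. Over all genes tested, 8285 had a positive and 7967 a negative log2 value, and without parental replicate 1 the called genes were 511 higher and 311 lower. The lowest described here were the pseudogenes Gm4859 (-1.49, SE 0.384), Rplp1-ps1 (-1.32, SE 0.581) and Gm7384 (-1.26, SE 0.406), and Lamtor4 (-1.18, SE 0.407), which encodes a subunit of the lysosomal Ragulator complex. Lamtor4 had 9.84 and 20.3 CPM in the parental line and 8.87 and 4.31 in the clone, so that replicate 1 of both groups lay close together. The highest were mt-Atp8 (2.01, SE 0.498), a subunit of the mitochondrial ATP synthase, the pseudogenes Gm11560 (1.17, SE 0.337), Gm38158 (1.17, SE 0.486) and Gm6667 (1.16, SE 0.458), and mt-Nd4l (1.16, SE 0.490). Each of these 9 had an adjusted p of 0.996. For each of the 9, the clone lay farther from the parental library in the replicate 2 pair than in the replicate 1 pair. Within pairs 1 and 2, Gm4859 had 78.8% and 18.8% of the parental level, and mt-Atp8 150% and 1549%. The replicate 2 pair holds parental replicate 2, the library that stands apart. Over chromosomes, the median log2 change of the total ran from -0.07 on chromosome 19 to 0.09 on chromosome 13, and that of chromosome 9 was 0.01 over 896 genes.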

How the data were processed

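RNA was measured in the 2 d3 clone 12 and 2 d3 parental libraries of a 24-library series. Per the labels, stranded poly(A) libraries were read from a single end, and the submitters' processing notes list STAR, SAMtools and mm10 without versions. The authors deposited raw counts, 1 whole number per gene, library and genome (129S1 or CAST). The counting program, the annotation and the assignment of reads to a genome are not given in the sources used here. Of 48985 gene identifiers, 48838 matched GENCODE M21 (GRCm38), which gave names and positions, and the other 147 held 0.0148% of the counts. Promoter sequences are from RefSeq GRCm38.p6.

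Both columns were added for totals. Tests used edgeR 4.0.16 in R 4.3.3 (TMM, filterByExpr, quasi-likelihood, Benjamini-Hochberg), with all 24 libraries in 1 fit, a coefficient for each of 12 groups and 12 residual degrees of freedom. The replicate block added the replicate number within each recombination, which left 7. It was fitted because replicate differences correlated between d3 groups (r of 0.45 to 0.71), although the labels do not say what a number shares. For the ratio, genes that average 10 counts or more per genome were kept, and both columns of each library entered 1 fit with a coefficient per library. CPM is the count over the total's effective library size, for both genomes alike. The scripts were tested on simulated data. Alternatives were other samples, filters, normalisation, DESeq2 1.42.0 and leaving out each library. Python 3.11.15 and Biopython 1.88 did the rest. Wilson intervals and floors of 3 counts cover counting error only. The p-values rest on the spread between duplicates, shared over the 12 groups, and do not measure the spread between clones.

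Named genes are those called in any test (up to 15 per test), those within 1 Mb of Tdgf1 with a mean of 10 counts, the 5 highest and 5 lowest changes of the total among genes that average 50 counts, do not overlap between the groups and have an unadjusted p under 0.05, and members of the lists. The members, this rule and the lists were chosen with earlier results of these data known. The results of 1 gene that the rule names are not reported.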

Additional observations from a re-analysis of the deposited data

How the results depend on the processing

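No called result changed its direction under an alternative. In the total, the 2 called genes became 0 with only the 4 libraries, 25 without a filter on low counts, 1 when genes had to average 50 counts and 1 to 822 when 1 library was left out. On 129S1 the 0 called genes became 1 with the replicate block, 17 without a filter and 0 to 563 when 1 library was left out. On CAST the 6 became 26 without a filter and 5 to 535 when 1 library was left out. The 5 genes of the allelic ratio became 5 to 155 when 1 library was left out. The highest of each range is without d3 parental replicate 1. The cause was not tested. The median CAST change within 1 Mb of Tdgf1, -0.26, became -0.031 within 10 Mb, which adds genes outside the stretch. The 129S1 median, 0.042, ran from -0.039 to 0.14 when 1 library was left out, moves of less than 1 SD (0.107) between the medians of the clone's libraries. The 1 called gene of the lists became 0 with only the 4 libraries, 8 without a filter, 0 with the stricter filter and 0 to 13 when 1 library was left out, an alternative chosen after seeing the data. Tdgf1, Lrrc2 and Epm2aip1 on CAST stayed called in 11 of 11 alternatives each, and Tdgf1, Lrrc2, Epm2aip1 and Als2cl in the ratio in 8 of 8. The replicate block, fitted to pair libraries by number, kept the 2 calls of the total and added Als2cl and Lrrfip2 to those on CAST, while Gm10030 was lost.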
